A study of Mus musculus with 12 samples.

Results

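Inflammasomes are protein complexes that macrophages build in the cytosol when a sensor meets a microbial product or damage. The sensor recruits caspase-1 through an adaptor, caspase-1 matures interleukin-1 beta and interleukin-18 and cuts gasdermin D, and gasdermin D opens pores that release these cytokines and can kill the cell. In macrophages a first signal such as LPS, the endotoxin of Gram-negative bacteria sensed by TLR4, raises the transcripts of several components before any complex forms. The 10 genes described here are the sensors Nlrp3, Aim2 and Nlrc4, the adaptor Pycard (ASC), the caspases Casp1 and Casp4, the pore protein gene Gsdmd, and the cytokine genes Il18, Il1a and Il1b. They were taken by gene name, and all 10 were found among the 14264 genes of the deposited tables.

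The cells were bone marrow-derived macrophages of Mus musculus, grown from marrow outside the body, labelled WT for the control; the sources used here do not give strain, sex or age. The 4 groups of 3 libraries were control hairpin (shCTRL) and MOF knockdown (shMOF) cells, each unstimulated or given LPS at 100 ng/ml for 3 h, called LPS 3 h in the plots. MOF is the lysine acetyltransferase that Kat8 encodes, and all groups carried a hairpin. The labels name a single shMOF condition and no rescue, so loss of MOF and other effects of that hairpin cannot be told apart. The labels number the libraries but name no animal or culture for each, so the p-values measure only the spread between these samples, which may be technical.

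The deposited tables hold 1 knockdown comparison for each state and no value per library, so each gene is given by its mean normalized count, its log2 fold change of shMOF over shCTRL and the standard error (SE) of that change. Kat8 itself had a log2 fold change of -2.25 (SE 0.10) unstimulated and -2.31 (SE 0.13) after LPS per the authors' deposited table. All 9 macrophage markers examined were measured, with mean normalized counts from 1233 to 259735. Of 13 neutrophil markers 5 were measured, and their means summed to 3726 against 526786 for the macrophage markers. Macrophage markers were themselves higher with knockdown in 8 of 9 cases unstimulated, and higher in 6 and lower in 1 after LPS, by the authors' deposited table. Their median log2 fold change was 0.40 unstimulated and 0.22 after LPS. These and the marker counts below stand beside 21.3% of all genes higher and 17.8% lower unstimulated. After LPS those shares were 28.1% and 20.0%. Progenitor markers (4 of 6 measured, mean 14.9 to 998) were lower in 3 cases unstimulated and in 2 after LPS, and dendritic cell markers (3 of 9 measured, mean 27.2 to 133) were higher in 0 and 2 cases. Of T, NK and B cell markers 1 of 10 was measured and of mast cell markers 2 of 7; the other markers were not analysed here. Among the neutrophil markers 1 was higher unstimulated, the cytokine receptor gene Csf3r at 0.79 (SE 0.14) per the authors' deposited table, and 0 passed after LPS. Their part in the results below was not tested, and in such bulk samples a change in the number of cells of a type cannot be told apart from a change of RNA per cell.

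Most of the 10 genes had higher transcript levels in MOF knockdown cells, by less than 2-fold. Here and below, rose and fell mean higher and lower in shMOF than in shCTRL cells of the same state. No comparison of LPS-treated with unstimulated cells was available, so the response of a gene to LPS itself is not given. In unstimulated cells Nlrp3, Pycard, Gsdmd, Aim2, Nlrc4 and Il18 rose, Il1a fell, and Casp1, Casp4 and Il1b did not pass. At LPS 3 h Nlrp3, Pycard, Casp4, Aim2, Il18 and Il1a rose, 0 fell, and Casp1, Gsdmd, Nlrc4 and Il1b did not pass. A gene was called when the adjusted p of the authors' DESeq2 Wald test was under 0.05. That makes 6 of 10 higher unstimulated, where 21.3% of all genes tested were higher, and 6 of 10 higher after LPS, where the share of all genes was 28.1%. For lower genes, 1 of 10 unstimulated stood beside 17.8% of all genes, and 0 of 10 after LPS beside 20.0%. In all, 7 of 10 were called unstimulated and 6 of 10 after LPS, beside 39.1% and 48.0% of all genes. Nlrp3, Pycard, Aim2 and Il18 were higher in both states, 4 of 10, beside 12.7% of all genes. By mean normalized count the 10 genes lay between percentile 51.1 (Nlrc4) and 98.0 (Il1b) of genes with a mean of at least 10. The shares of all genes were not matched on count. The median log2 fold change of the 10 genes was 0.30 unstimulated and 0.31 after LPS, while that of all genes tested was 0.03 in each state. A minimum log2 change of 1 left 0 of the 10 genes called in either state, beside 484 of 14264 genes unstimulated and 693 of 13987 after LPS. Against an empirical null, with centre and width estimated from the Wald statistics of all genes, 1 gene (Nlrp3) stayed called unstimulated and 3 (Nlrp3, Aim2 and Il18) after LPS. Among all genes that null left 783 called unstimulated and 674 after LPS, against 5575 and 6718 by the deposited adjusted p.

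**Figure D1:**
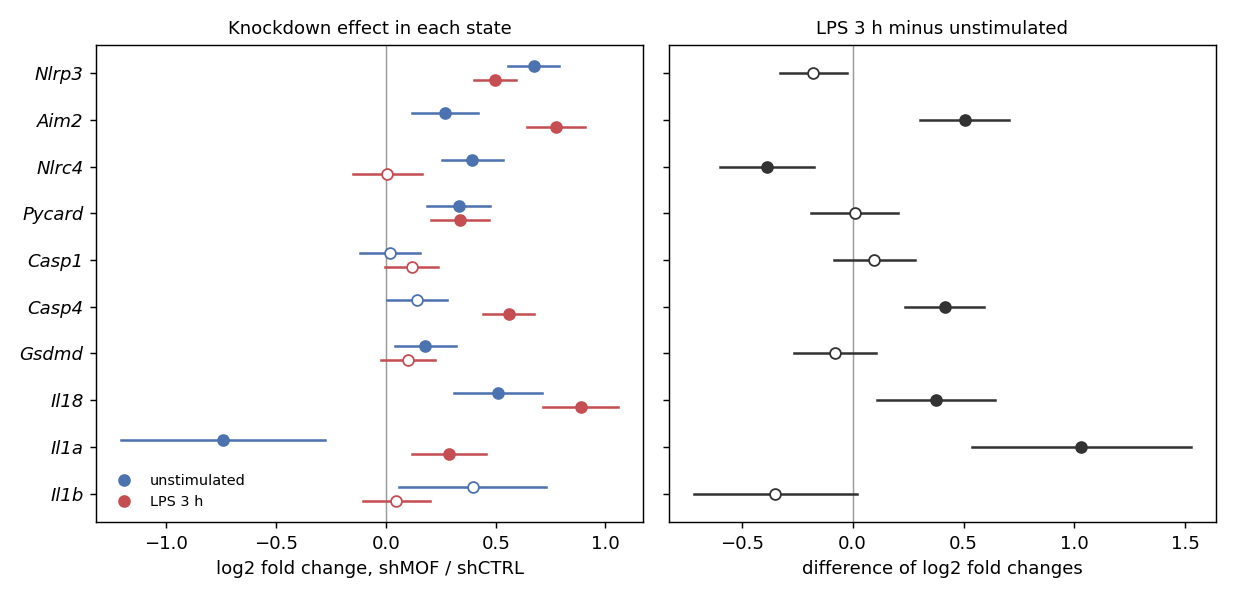
Log2 fold change of shMOF over shCTRL for the 10 genes (left, blue unstimulated, red LPS 3 h) and the difference between these changes (right), with bars for 95% intervals and filled points for an adjusted p under 0.05. Il1a lies at -0.74 unstimulated and 0.29 after LPS, and the other genes lie above 0 in both states.

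The knockdown effect was compared between states through the difference of the 2 log2 fold changes, LPS 3 h minus unstimulated. The states have separate controls, and the errors of the 2 changes were taken as uncorrelated. Of the 10 genes, 5 differed at an adjusted p under 0.05 (normal test, Benjamini-Hochberg over 12994 genes), beside 30.6% of all genes. The difference was positive for Casp4, Aim2, Il18 and Il1a, 4 of 10 beside 18.2% of all genes, and negative for Nlrc4, 1 of 10 beside 12.4%. For Nlrp3, Pycard, Casp1, Gsdmd and Il1b a difference was not detectable at this precision. Against the empirical null 0 of the 5 differences passed, with adjusted p from 0.356 to 0.871. Among all genes 335 differences passed it, against 3977 in the main test.

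**Figure D2:**
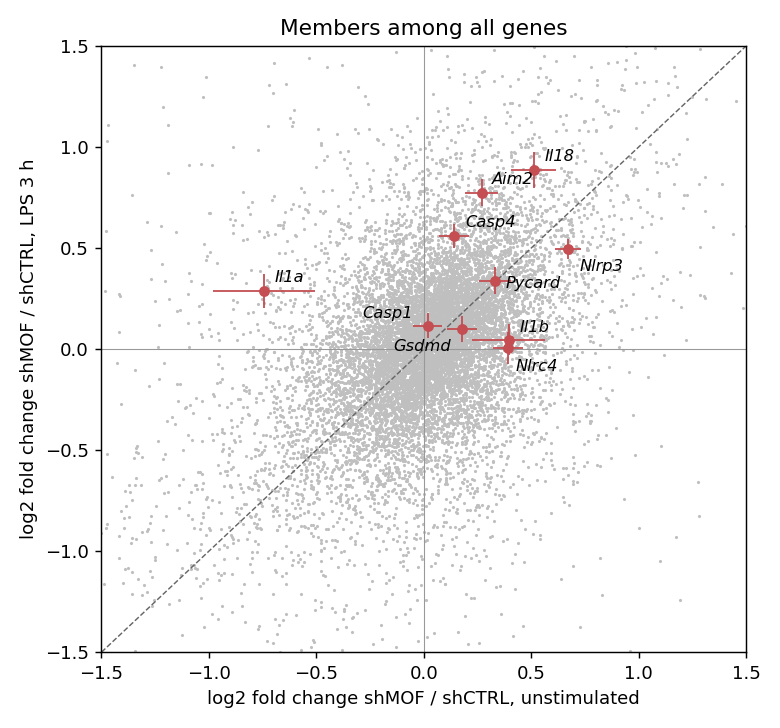
Log2 fold change unstimulated (x) against LPS 3 h (y), with each of 12654 genes in grey and the 10 genes in red with bars of 1 SE; 340 genes beyond the axes are not drawn, and the dashed line marks equal change. Aim2, Casp4, Il18 and Il1a lie above the line and Nlrc4 below it.

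Among the sensors, Nlrp3 rose in both states, Aim2 rose more after LPS, and Nlrc4 rose only where LPS was absent, the last 2 with a tested difference between states. Nlrp3, which responds to potassium efflux and membrane damage, lies on the plus strand of chromosome 11 of GRCm38, bases 59541568 to 59566956 (ENSMUSG00000032691.14). Its rise in unstimulated cells was the largest of the 10 genes, 0.67 (SE 0.06, adjusted p = 1.18e-27) per the authors' deposited table, or 1.59-fold with a 95% interval of 1.47 to 1.73. This change exceeded that of 96.4% of genes whose mean normalized count was 10 or more. At LPS 3 h it was 0.50 (SE 0.05, adjusted p = 7.46e-23) per the authors' deposited table, or 1.41-fold with an interval of 1.32 to 1.51. The difference of -0.18 (SE 0.08) had an adjusted p of 0.0680, and it passed at an adjusted p of 0.0199 if the errors of the 2 changes correlate at 0.3.

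Aim2 encodes a sensor of double-stranded DNA and lies on the plus strand of chromosome 1, bases 173350879 to 173466040. In unstimulated cells it rose by 0.27 (SE 0.08, adjusted p = 0.00202) per the authors' deposited table, or 1.20-fold with an interval of 1.08 to 1.34. With LPS it rose by 0.77 (SE 0.07, adjusted p = 1.47e-29) per the authors' deposited table, or 1.71-fold with an interval of 1.56 to 1.87. The intervals of the 2 states do not overlap, and the difference of 0.51 (SE 0.10) had an adjusted p of 9.07e-06.

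Nlrc4, which assembles with NAIP proteins that bind bacterial flagellin and secretion system parts, lies on the minus strand of chromosome 17, bases 74425438 to 74459142. It rose by 0.39 (SE 0.07, adjusted p = 2.77e-07) in unstimulated cells and had 0.01 (SE 0.08, adjusted p = 0.957) after LPS per the authors' deposited table. The fold changes are 1.31 (interval 1.19 to 1.44) and 1.004 (interval 0.900 to 1.12), the latter interval spanning changes in both directions. The difference, -0.39 (SE 0.11), had an adjusted p of 0.00195. Nlrc4 had the lowest level of the 10 genes per length, 125 mean normalized counts per kb of merged exons.

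Pycard encodes the adaptor that links NLRP3 and AIM2 to caspase-1, and its change was nearly the same in both states. It lies on the minus strand of chromosome 7, bases 127989708 to 127993867. Pycard rose by 0.33 (SE 0.07, adjusted p = 3.99e-05) unstimulated and by 0.34 (SE 0.07, adjusted p = 2.43e-06) after LPS per the authors' deposited table. These are 1.26-fold (interval 1.14 to 1.39) and 1.27-fold (interval 1.15 to 1.39). The difference of 0.01 (SE 0.10, adjusted p = 0.962) had a 95% interval from -0.19 to 0.20. Pycard lies 63870 bases from the hairpin's target Kat8.

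The 2 inflammatory caspase genes, which stand next to each other, gave unlike results: Casp4 rose after LPS and Casp1 passed in neither state. The difference between the genes was not tested. Casp1 matures interleukin-1 beta and interleukin-18, and Casp4 encodes mouse caspase-11, which binds LPS in the cytosol and cuts gasdermin D. Both lie on the plus strand of chromosome 9, Casp1 from 5298517 to 5307265 and Casp4 from 5308828 to 5336783, with 1562 bases between them. Casp1 had 0.02 (SE 0.07, adjusted p = 0.872) unstimulated and 0.12 (SE 0.06, adjusted p = 0.108) after LPS per the authors' deposited table. Its fold changes of 1.01 (interval 0.922 to 1.11) and 1.08 (interval 0.997 to 1.18) lay close to 1. Casp4 had 0.14 (SE 0.07, adjusted p = 0.0931) unstimulated and rose by 0.56 (SE 0.06, adjusted p = 3.64e-20) after LPS per the authors' deposited table. At LPS 3 h that is 1.47-fold, with an interval of 1.36 to 1.59 that does not overlap that of Casp1. The difference between states was 0.42 (SE 0.09, adjusted p = 4.92e-05) for Casp4 and 0.10 (SE 0.09, adjusted p = 0.453) for Casp1. Casp12, a related caspase gene 8646 bases beyond Casp4, rose by 0.90 (SE 0.29) unstimulated and 1.42 (SE 0.17) after LPS per the authors' deposited table, at a mean normalized count of 50.5.

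The promoters of the neighbouring caspase genes and of Nlrp3 are shown because NF-kB is a main transcription factor of the LPS response. The windows are the 250 bases before the most upstream RefSeq start on GRCm38.p6, written along the gene's strand, at chr9:5298267-5298516 for Casp1, chr9:5308599-5308848 for Casp4 and chr11:59541319-59541568 for Nlrp3, all on the plus strand. Capitals mark every match, on either strand, to the consensus motif of NF-kB, to the interferon response element (GAAA, 2 bases of any kind, GAAA), to AP-1 (TGANTCA), to C/EBP (TTGCNNAA), to the PU.1 core GAGGAA or to the TATA box TATAAA.
Casp1 promoter: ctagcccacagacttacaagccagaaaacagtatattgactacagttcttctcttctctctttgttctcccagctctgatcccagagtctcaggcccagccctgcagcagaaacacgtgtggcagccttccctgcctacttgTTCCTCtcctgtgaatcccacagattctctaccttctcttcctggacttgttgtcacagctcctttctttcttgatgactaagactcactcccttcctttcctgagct
Casp4 promoter: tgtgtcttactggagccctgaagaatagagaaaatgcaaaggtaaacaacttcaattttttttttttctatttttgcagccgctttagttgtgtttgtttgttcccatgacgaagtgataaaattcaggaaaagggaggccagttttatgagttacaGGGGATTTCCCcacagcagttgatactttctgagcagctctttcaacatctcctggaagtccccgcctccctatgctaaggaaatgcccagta
Nlrp3 promoter: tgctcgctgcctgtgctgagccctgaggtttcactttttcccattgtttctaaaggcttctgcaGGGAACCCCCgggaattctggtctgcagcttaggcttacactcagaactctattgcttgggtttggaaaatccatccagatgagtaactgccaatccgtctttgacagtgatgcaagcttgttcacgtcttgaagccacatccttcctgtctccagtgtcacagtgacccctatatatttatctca
The capitals in Casp4 are 3 overlapping NF-kB matches, from 93 to 83 bases before the start, those in Nlrp3 are an NF-kB match from 186 to 177, and those in Casp1 are a PU.1 core. Among the 9 of 10 genes with a RefSeq promoter, Casp4 and Nlrp3 were the 2 with an NF-kB match, and 3.90% of all 32851 promoter windows had one. The interferon element was found in 0 of the 9 and in 2.98% of all windows. The PU.1 core was in 4 of 9 (Aim2, Casp1, Il1a and Pycard) and in 23.3% of all windows. A match describes these letters only and is not a measured binding site.

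Gsdmd, whose product forms the pore, changed little. It lies on the plus strand of chromosome 15, bases 75862327 to 75867408. The unstimulated rise of 0.18 (SE 0.07, adjusted p = 0.0304) per the authors' deposited table is 1.13-fold with an interval of 1.03 to 1.25, and centring the fold changes on their median moved its adjusted p to 0.0818. At LPS 3 h it had 0.10 (SE 0.06, adjusted p = 0.188) per the authors' deposited table, or 1.07-fold with an interval of 0.984 to 1.17. The difference was -0.08 (SE 0.09, adjusted p = 0.566).

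The cytokine genes went separate ways. Il18 rose in both states, Il1a fell unstimulated and rose after LPS, and Il1b passed in neither. Il18, made as a precursor that caspase-1 cuts and known to drive interferon-gamma production, lies on the plus strand of chromosome 9, bases 50554827 to 50581840. It rose by 0.51 (SE 0.10, adjusted p = 4.87e-06) unstimulated and by 0.89 (SE 0.09, adjusted p = 7.25e-23) after LPS per the authors' deposited table. The latter, 1.85-fold with an interval of 1.64 to 2.08, was the largest change of the 10 genes after LPS and exceeded that of 97.1% of genes with a mean of at least 10. Unstimulated it was 1.42-fold with an interval of 1.24 to 1.64. The difference of 0.38 (SE 0.13) had an adjusted p of 0.0215, which became 0.0575 with an error correlation of -0.3.

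Il1a and Il1b, the genes of interleukin-1 alpha and beta, lie 54597 bases apart on the minus strand of chromosome 2, from 129299610 to 129309972 and from 129364570 to 129371139. Interleukin-1 alpha is active without caspase-1 cleavage and acts as an alarm signal of dying cells, while interleukin-1 beta needs cleavage. Il1a fell in unstimulated knockdown cells, at -0.74 (SE 0.24, adjusted p = 0.00595) per the authors' deposited table, or 0.597-fold with an interval of 0.433 to 0.824. At LPS 3 h it rose by 0.29 (SE 0.09, adjusted p = 0.00249) per the authors' deposited table, or 1.22-fold with an interval of 1.09 to 1.37. The difference of 1.03 (SE 0.25, adjusted p = 3.35e-04) was the largest of the 10 genes. It exceeded that of 97.7% of genes with a mean of at least 10.

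Il1b had 0.40 (SE 0.17, adjusted p = 0.0530) unstimulated per the authors' deposited table, or 1.31-fold with an interval of 1.04 to 1.66. Adjusted over genes with a mean of at least 50, it passed at 0.0429. At LPS 3 h it had 0.05 (SE 0.08, adjusted p = 0.657) per the authors' deposited table, or 1.03-fold with an interval of 0.929 to 1.15. The difference of -0.35 (SE 0.19, adjusted p = 0.154) had an interval from -0.72 to 0.02. For Il1a and Il1b the SE was 2.75 and 2.20 times as large unstimulated as after LPS, against a median ratio of 1.03 over genes with a mean of at least 10 and a range of 0.88 to 1.22 over the other 8 genes. The unstimulated values of these cytokine genes are thus the least precise of the set.

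The promoters of this cytokine pair are shown because Il1a fell unstimulated while its neighbour Il1b did not pass; the difference between the genes was not tested. The windows, made and marked as above, are chr2:129309973-129310222 for Il1a and chr2:129371140-129371389 for Il1b on GRCm38.p6, both on the minus strand.
Il1a promoter: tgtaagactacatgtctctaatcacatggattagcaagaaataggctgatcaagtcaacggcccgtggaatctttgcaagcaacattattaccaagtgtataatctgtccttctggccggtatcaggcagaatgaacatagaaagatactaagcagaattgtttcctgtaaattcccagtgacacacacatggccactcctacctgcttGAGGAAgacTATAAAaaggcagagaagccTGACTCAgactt
Il1b promoter: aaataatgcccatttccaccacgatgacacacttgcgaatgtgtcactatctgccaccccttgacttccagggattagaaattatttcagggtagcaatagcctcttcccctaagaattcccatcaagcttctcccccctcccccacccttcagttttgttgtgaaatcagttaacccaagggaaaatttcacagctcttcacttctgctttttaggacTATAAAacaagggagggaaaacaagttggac
Both hold a TATA box close to the start, from 32 to 27 bases before it in Il1a and from 31 to 26 in Il1b. The letters TATAAA, at any place and on either strand, were found in 3 of the 9 promoters and in 12.4% of all windows. The other promoter was that of Il18, where the match lies on the opposite strand from 175 to 170 bases before the start. That is not the position of a TATA box. The Il1a window also holds a PU.1 core and an AP-1 match, and AP-1 matched 1 of the 9 and 6.75% of all windows. The C/EBP motif was in Nlrc4 and Pycard and in 9.56% of all windows.

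Some of these genes share bases with transcripts of the opposite strand, and the sources used here do not say whether the authors counted by strand. Gm14023 overlaps Il1a over 8217 bases, with a mean normalized count of 12.04. Il1bos overlaps Il1b over 1243 bases with a mean of 25.7, and rose by 0.62 (SE 0.23, adjusted p = 0.0178) after LPS per the authors' deposited table. Bco2 overlaps the first 355 bases of the Il18 model, with a mean of 122 against 725 for Il18, and had 0.45 (SE 0.15, adjusted p = 0.00611) after LPS per the authors' deposited table. As counts, not per length, these are far below the means of Il1a (7159) and Il1b (16556), less so below that of Il18. The means do not separate the states, so the share of such reads in unstimulated cells is unknown. Over Pycard, 599 bases are shared with RP24-144C5.1, a transcript of the opposite strand with a mean of 7.70. Cadm3, which overlaps Aim2, and Tex12, which overlaps Il18, were not analysed here.

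Next to Il1a on the other side lies Ckap2l, a mitotic spindle gene, 2397 bases beyond its end on the same strand. Ckap2l fell with -2.39 (SE 0.10) unstimulated and -1.36 (SE 0.10) after LPS per the authors' deposited table. Farther on that side Slc20a1, 87993 bases from Il1a, fell with -1.08 (SE 0.09) and -1.07 (SE 0.09) per the authors' deposited table. Unstimulated, both thus had the sign of Il1a, and after LPS the opposite sign. Il1b, on the opposite side, passed in neither state. Whether the changes of these neighbours are linked was not tested.

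**Figure D3:**
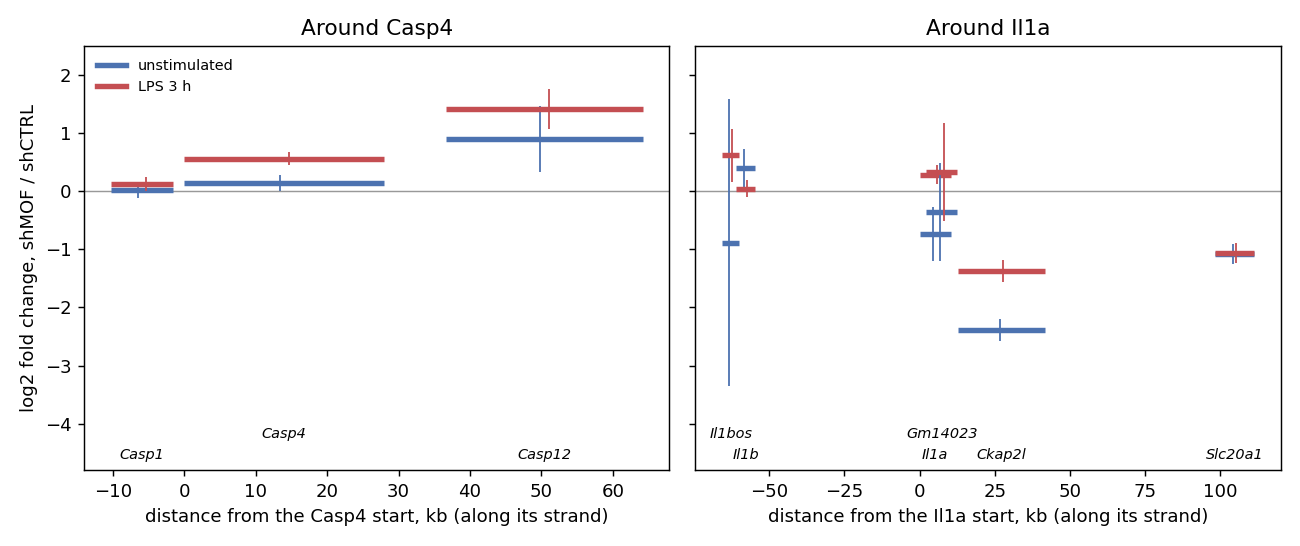
Log2 fold change of shMOF over shCTRL (y) for measured genes with a mean of at least 10 by distance in kb from the start of Casp4 (left) and Il1a (right); thick bars span the gene, thin bars are 95% intervals, blue is unstimulated and red LPS 3 h. Casp1 lies near 0 beside the higher Casp4 and Casp12, and Il1a lies between Il1b and the strongly lower Ckap2l.

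Per length, Il1b, Casp1 and Il1a had the highest levels of the 10 genes. Il1b had 8682 mean normalized counts per kb of merged exons, Casp1 5450, Il1a 3626, Nlrp3 1888, Gsdmd 1846 and Casp4 1310. Il18 (704), Aim2 (644), Pycard (545) and Nlrc4 (125) followed on this per-kb scale. The means are the authors' and identical in both tables, so they do not separate resting from LPS-treated cells and carry no spread. The exon models are those of GENCODE M21, and a long model lowers the value per kb. Il18 and Aim2, with the largest log2 fold changes of shMOF over shCTRL at LPS 3 h, had lower levels per kb than most of the other genes.

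Other genes of the pathway, from 8 lists with 109 measured genes, moved both ways. In all, 45 of 109 rose and 13 fell unstimulated, and 52 rose and 21 fell after LPS, with medians of 0.09 and 0.17. These counts, and those of each list below, stand beside 21.3% of all genes higher and 17.8% lower unstimulated, and 28.1% higher and 20.0% lower after LPS. The genes that fell, 13 and 21 of 109, make a share below or near that of all genes.

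Other cytosolic sensors rose in 4 of 13 cases and fell in 1 unstimulated, and rose in 5 and fell in 4 after LPS (medians 0.03 and 0.08), with the shares of higher genes not far from those of all genes. Nod1 and Nod2, receptors of bacterial cell wall fragments, rose by 0.82 (SE 0.19) and 0.29 (SE 0.09) unstimulated per the authors' deposited table. Both were also higher at LPS 3 h, with 0.64 (SE 0.17) and 0.43 (SE 0.06) per the authors' deposited table. Mefv, which encodes pyrin, rose by 0.48 (SE 0.10) after LPS, while Nlrp1a had -0.61 (SE 0.10) and the mitochondrial Nlrx1 -0.70 (SE 0.13) per the authors' deposited table, both lower. Unstimulated, Nlrx1 was higher, at 0.25 (SE 0.10) per the authors' deposited table. Of the NAIP partners of Nlrc4, Naip1 fell unstimulated, with -0.93 (SE 0.31), and Naip2, Naip5 and Naip6 had 0.02 (SE 0.06), 0.03 (SE 0.09) and -0.10 (SE 0.11) in that state per the authors' deposited table and did not pass. After LPS Naip5 fell, at -0.37 (SE 0.09, adjusted p = 1.19e-04) per the authors' deposited table, with a difference between states of -0.40 (SE 0.12, adjusted p = 0.00564). Naip1, Naip2 and Naip6 did not pass after LPS. The Naip, Nlrp1 and guanylate binding protein genes have close copies, between which reads could be split, so their values are uncertain.

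Another list held the other caspases and gasdermins, Ninj1, which ruptures the membrane at the end of lytic death, and the signalling adaptor gene Card9. Of its 10 measured genes 6 rose and 2 fell unstimulated, and 5 rose and 2 fell after LPS. Card9 was among those higher unstimulated, at 0.20 (SE 0.05), and had -0.10 (SE 0.05) after LPS per the authors' deposited table. Dfna5, the gene of gasdermin E, fell with -0.33 (SE 0.09) unstimulated and -0.68 (SE 0.13) after LPS per the authors' deposited table.

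Of 20 genes that act on NLRP3 or its neighbours in cell death, 8 rose and 1 fell unstimulated, and 8 rose and 4 fell after LPS (medians 0.07 and 0.11). P2rx7, the ATP-gated channel that triggers NLRP3, rose by 0.49 (SE 0.08) unstimulated and the related P2rx4 by 0.74 (SE 0.08) per the authors' deposited table. At LPS 3 h both were also higher, with 0.23 (SE 0.08) and 0.28 (SE 0.07) per the authors' deposited table. Nek7, the kinase that NLRP3 binds, had 0.01 (SE 0.04) unstimulated and rose by 0.27 (SE 0.04) after LPS per the authors' deposited table. Brcc3, a deubiquitinase of NLRP3, fell with -0.37 (SE 0.06) unstimulated and -0.36 (SE 0.07) after LPS per the authors' deposited table. Tnfaip3 (A20), which restrains NF-kB and NLRP3, rose by 0.27 (SE 0.07) unstimulated and 1.001 (SE 0.05) after LPS per the authors' deposited table. Pstpip1, a pyrin partner, fell with -0.40 (SE 0.04) after LPS per the authors' deposited table.

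The interferon-inducible route that exposes bacterial LPS and DNA to caspase-11 and AIM2 had the highest medians of the lists after LPS. Of 11 genes 7 rose and 1 fell unstimulated, and 9 rose and 0 fell after LPS (medians 0.26 and 0.44). The transcription factor gene Irf1 rose by 0.74 (SE 0.08) and 1.13 (SE 0.07) per the authors' deposited table. Gm12250, the gene of IRGB10, rose by 0.78 (SE 0.16) and 0.83 (SE 0.13), and Gbp5 had -0.09 (SE 0.20) and then rose by 0.90 (SE 0.15), unstimulated and after LPS per the authors' deposited table. Mb21d1, which encodes the DNA sensor cGAS, fell with -0.55 (SE 0.10) unstimulated and rose by 0.44 (SE 0.08) after LPS per the authors' deposited table, a change of sign like that of Il1a.

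Ligands, receptors and antagonists of the interleukin-1 family rose in 2 of 12 cases and fell in 1 unstimulated, and rose in 5 and fell in 3 after LPS. Il1rn, the secreted receptor antagonist that blocks both forms of interleukin-1, fell with -0.33 (SE 0.12) unstimulated and had 0.05 (SE 0.10) after LPS per the authors' deposited table. Il1rap, the shared receptor chain, rose by 0.28 (SE 0.10) and 0.70 (SE 0.09) per the authors' deposited table, unstimulated and after LPS. Il33 rose by 0.95 (SE 0.20) and Il1rl1, the gene of its receptor, by 1.54 (SE 0.34) after LPS per the authors' deposited table, at low means of 112 and 24.0. Il1rl1 was also higher unstimulated, at 0.80 (SE 0.25) per the authors' deposited table. Il18bp, the inhibitor of interleukin-18, had 0.14 (SE 0.11) unstimulated and 0.18 (SE 0.10) after LPS per the authors' deposited table and passed in neither state.

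Receptor signalling genes had 3 of 14 higher and 3 lower unstimulated, and 6 higher and 2 lower after LPS. Myd88, the adaptor of interleukin-1 and Toll-like receptors, rose by 0.70 (SE 0.09) and 0.56 (SE 0.08) per the authors' deposited table, while Tab1 fell with -0.97 (SE 0.12) after LPS. Transcription factors known to act on these genes had 11 of 17 higher and 2 lower unstimulated, and 10 higher and 3 lower after LPS (medians 0.19 and 0.27). Irf2, known to drive Gsdmd, rose by 0.36 (SE 0.15) and 0.37 (SE 0.13), and Irf8, known to drive Naip genes, by 0.50 (SE 0.06) and 0.37 (SE 0.06) per the authors' deposited table. The NF-kB subunit genes Rel and Nfkb1 rose by 0.97 (SE 0.05) and 0.44 (SE 0.03) after LPS per the authors' deposited table. Unstimulated, Rel was higher at 0.17 (SE 0.06), and Nfkb1 had 0.05 (SE 0.04) and did not pass, per the authors' deposited table. Among the lower genes of this list, Hif1a fell with -0.35 (SE 0.05) unstimulated and -0.13 (SE 0.04) after LPS per the authors' deposited table. ESCRT-III genes, whose products repair gasdermin pores, had 4 of 12 higher and 2 lower unstimulated, and 4 higher and 3 lower after LPS, with medians of 0.03 and -0.01.

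**Figure D4:**
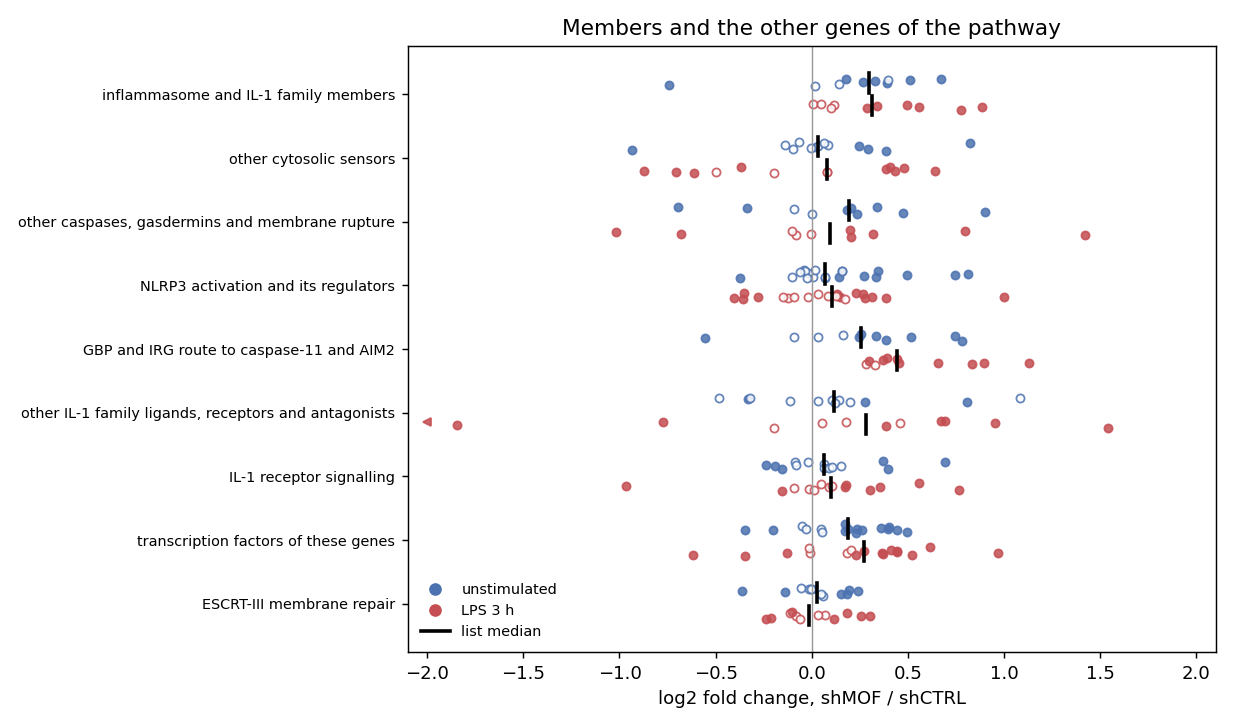
Log2 fold change of shMOF over shCTRL for the 10 genes and 8 pathway lists, each point a gene (blue unstimulated, red LPS 3 h, filled for an adjusted p under 0.05) and each black bar a list median; 1 gene beyond -2 is drawn as a triangle at the edge. The 10 genes have medians of 0.30 and 0.31, and the list of the interferon-inducible route has 0.26 and 0.44.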

How the data were processed

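RNA from 12 libraries in 4 groups of 3 was measured by sequencing of stranded, paired-end mRNA libraries, per the labels' protocols. The submitters' processing notes name DESeq2 and mm10, without versions; for the aligner, counter, annotation release and strand setting, no name is given in the sources used here. The authors deposited, per the file headers, a mean normalized count (a signal), a log2 fold change with SE, a Wald statistic (a score), and a p-value with its adjusted value. The deposited UP and DOWN calls matched an adjusted p under 0.05 for all 14264 genes of each table. The authors left 277 genes of the LPS table without an adjusted p. Depth per library is unknown, and the SE carries the precision. No column was left unassigned to a comparison.

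From these values 95% intervals and the difference between states were computed (Python 3.11.15, scipy 1.17.1), the latter over 12994 genes with a mean of at least 10. The difference was also run on simulated data, whose outcome is not reported here and is not used as support. Text names the 10 genes, Kat8, up to 4 genes per list by smallest p in each state, genes overlapping or beside them, and Naip2, Naip5, Naip6, Irf2 and the neighbours of Il1a, chosen after their values were seen; some genes are not reported here. The members and lists were chosen with earlier results of these data known. Of 124 pathway list entries 109 were found, 5 under another name in RefSeq. Coordinates are from GENCODE M21 (GRCm38), matched by gene ID without version for 14222 genes; promoters are from RefSeq (GRCm38.p6). Alternatives changed the centring, the genes adjusted over, the threshold, the minimum change, the null and the error correlation.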

Additional observations from a re-analysis of the deposited data

Results flagged for a closer look

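The knockdown effect differed between LPS 3 h and unstimulated cells for 5 of the 10 genes by the test of the difference (normal test, adjusted over 12994 genes), beside 30.6% of all genes. The difference in log2 fold change was 0.42 (SE 0.09, adjusted p = 4.92e-05) for Casp4, 0.51 (SE 0.10, adjusted p = 9.07e-06) for Aim2 and 0.38 (SE 0.13, adjusted p = 0.0215) for Il18. It was 1.03 (SE 0.25, adjusted p = 3.35e-04) for Il1a, where the sign of the change turned, and -0.39 (SE 0.11, adjusted p = 0.00195) for Nlrc4.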

How the results depend on the processing

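The tables hold no values per library, so no library could be left out. No paired analysis was possible because the deposited columns carry no replicate values. Of the 7 genes called unstimulated, 0 were left with a minimum log2 change of 1, 1 (Nlrp3) against a null width of 0.25 and 1 (Nlrp3) under an empirical null. Of the 6 after LPS, 0 were left with a minimum change of 1, 4 against that null and 3 (Nlrp3, Aim2 and Il18) under the empirical null. Of the 5 differences 0 were left under the empirical null, with adjusted p from 0.356 (Aim2) to 0.871 (Il18). Over all genes these settings also cut calls, from 5575 to 484, 1492 and 783 unstimulated, from 6718 to 693, 2447 and 674 after LPS, and from 3977 to 335 for the difference. The empirical null changed the split of higher and lower calls from 3037 and 2538 to 221 and 562 unstimulated, and from 2363 and 1614 to 270 and 65 for the difference. Centring, which shifts the changes of each state by 0.03, turned the sign of Casp1 unstimulated (-0.0122) and Nlrc4 after LPS (-0.0235), and the empirical null that of Nlrc4 (-0.0117); neither was called. Across single genes, 166 values kept their sign and call, 39 lost the call, 2 gained it and 3 changed sign. The cause of these changes was not tested. Other settings moved the number of genes called by at most 1 in either comparison or the difference.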

Other observations

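The difference between states for Ckap2l, 1.03 (SE 0.14, adjusted p = 3.41e-12), was as large as that of its neighbour Il1a, although the changes it separates, -2.39 and -1.36 per the authors' deposited table, are both falls. This was seen after the values were examined. Genes of the pathway other than Il1a also turned sign between states. Txnip, whose product binds thioredoxin and NLRP3, rose by 0.35 (SE 0.05) unstimulated and had -0.28 (SE 0.05) after LPS per the authors' deposited table, with a difference of -0.62 (SE 0.07, adjusted p = 2.53e-15). Mb21d1 had a difference of 0.998 (SE 0.12, adjusted p = 6.55e-14).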
